A study of Mus musculus with 26 samples.

Results

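The genes named Zfp followed by a number encode mouse zinc finger proteins, and 305 of the 13641 genes in the deposited expression table carried such a name once Zfp36, an RNA-binding protein of another kind, was left out. They were chosen by name alone. The RNA came from islets of the pancreas picked by hand from C57BL/6J mice, pooled at 30-50 islets per sample according to the labels, with no transgene, mutation or treatment named for any group. At postnatal day 5 there were 9 libraries labelled small and 11 labelled large, and at 2.5 months of age there were 6 adult libraries. By batch, the small, large and adult libraries numbered 2, 3 and 2 in batch 3 and 3, 4 and 4 in batch 2, while batch 1 was neonatal alone with 4 small and 4 large. Values are FPKM, the fragments per kilobase of gene, scaled to the total of the library.

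Most Zfp proteins bind DNA through tandem C2H2 zinc fingers, in which paired cysteines and histidines hold a zinc ion and each finger reads a few bases. Many also carry a KRAB box, a domain near the amino terminus that binds the corepressor Trim28, which brings histone methyltransferases, heterochromatin proteins and deacetylases to the bound site. KRAB zinc finger genes have multiplied in tandem on several chromosomes, and those with known targets mostly silence retroelements and imprinted regions. Zfp proteins without a KRAB box are a mixed set of developmental transcription factors, RNA-binding proteins and ubiquitin ligases.

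Translation of the annotated coding sequences (GENCODE M21) found a KRAB box in 177 members and none in 126, while the remaining 2 are transcribed pseudogenes. The KRAB members held 12 C2H2 fingers at the median (0 to 33), and the members without a KRAB box held 7.5 (0 to 36). A SCAN domain, which lets such proteins pair with each other, was found in 13 members. A total of 139 members lay in 17 chromosomal runs of at least 4 members spaced by no more than 500 kb, and 110 of them were KRAB members. Within such runs near-identical copies can share reads, and how the counting treated shared reads is not given in the sources used here, so single values of run members are less certain than those of isolated genes.

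Promoter windows of RefSeq (GRCm38.p6, 250 bases before to 50 after the annotated start) were available for 158 KRAB members and 96 members without a KRAB box. The 11-base core of an element read by Zfp143 together with Thap11, spelled out in capitals in the windows printed here, stood on either strand in 7 of the 158 KRAB windows (4.43%), in 2 of the 96 others (2.08%) and in 73 of 10530 windows of genes in the expression table (0.693%). The windows around this core in the 7 KRAB members are printed because, of the 6 motifs searched, this one had the highest ratio of its share in KRAB windows to its share in the windows of all genes in the table, with the core or its reverse complement in capitals and each sequence read along the gene's strand.
Zfp1, chr8:111643410-111643436, plus strand: gcattatgGGAATTGTAGTcctacacc
Zfp58, chr13:67500534-67500560, minus strand: gacttgtgGGAATTGTAGTctggccac
Zfp93, chr7:24270339-24270365, plus strand: gaattctgGGAATTGTAGTtccaacgc
Zfp108, chr7:24254719-24254745, plus strand: gcattctgGGAATTGTAGTtctggagc
Zfp128, chr7:12881155-12881181, plus strand: gccttctgGGAATTGTAGTctcagtgt
Zfp454, chr11:50887658-50887684, minus strand: gccttctgGGAATTGTAGTttcggcca
Zfp933, chr4:147848432-147848458, minus strand: tccaaagaACTACAATTCCcagcattc
The core, as spelled in Zfp933, stood in reverse complement in the other 6 of the 7 windows, and began at positions -166 to -15 relative to the annotated start. The other motifs were searched on both strands in the same windows. CCGGAAG, the core bound by ETS factors, was in 24.7% of KRAB windows, 16.7% of the other members' windows and 17.5% of windows of all genes in the table. GGGCGG, the GC box, was in 39.9% of KRAB windows, 56.2% of the other members' and 64.8% of all. CCAAT was in 50.6% of KRAB windows, 43.8% of the other members' and 38.5% of all. The palindromic Nrf1 element was in 3.8% of KRAB windows, 4.17% of the other members' and 2.03% of all. TATAAA was in 4.43% of KRAB windows, 9.38% of the other members' and 6.74% of all. A match is a run of letters and not a mapped binding site.

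The upstream 250 bases of the 2 KRAB members with the most negative batch differences and of 1 member without a KRAB box that was high in neonates are printed as examples of these promoters, with CCAAT and GGGCGG (or their reverse complements) in capitals.
Zfp950, chr19:61140841-61141090, minus strand: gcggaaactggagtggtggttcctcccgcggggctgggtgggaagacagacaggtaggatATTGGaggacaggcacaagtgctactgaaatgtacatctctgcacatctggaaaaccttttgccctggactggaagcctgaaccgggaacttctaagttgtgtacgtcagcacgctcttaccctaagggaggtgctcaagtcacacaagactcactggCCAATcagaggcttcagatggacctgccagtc
Zfp882, chr8:71908356-71908605, plus strand: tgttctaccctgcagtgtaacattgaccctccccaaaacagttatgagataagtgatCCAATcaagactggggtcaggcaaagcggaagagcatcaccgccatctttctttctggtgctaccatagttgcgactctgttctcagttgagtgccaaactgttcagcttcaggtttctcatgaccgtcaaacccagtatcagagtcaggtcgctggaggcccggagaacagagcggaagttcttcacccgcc
Zfp423, chr8:87959596-87959845, minus strand: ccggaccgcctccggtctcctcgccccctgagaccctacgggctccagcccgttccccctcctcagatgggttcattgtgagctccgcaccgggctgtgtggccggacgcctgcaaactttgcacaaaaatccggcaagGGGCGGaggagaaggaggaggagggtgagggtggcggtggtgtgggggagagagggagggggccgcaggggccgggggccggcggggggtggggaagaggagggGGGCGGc
Zfp950 and Zfp882 held CCAAT and no GGGCGG in these bases, and Zfp423 held GGGCGG and no CCAAT.

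Fragment totals recovered from the FPKM were 15.5 M to 32 M per library over the listed genes. The adult libraries of batch 3 had 18.5 M and 17.3 M fragments, below every other library of batches 2 and 3. Within batch 1, totals were 15.5 M to 18.3 M fragments for small and 21 M to 23.2 M for large islets. The β cell markers, which include the insulin genes, had summed FPKM of 89946 to 142743 in neonatal and 128463 to 180585 in adult libraries. The summed FPKM of 10 mesenchymal and pericyte markers was 200.1 to 1282 in neonatal and 74.7 to 137.2 in adult libraries, and that of 8 endothelial markers was 334.4 to 553.1 in neonatal and 123.3 to 152.8 in adult libraries. The adult libraries of batch 3 stood apart in immediate early genes, the transcription factors and regulators induced within minutes of a stimulus such as tissue handling: 15 of them summed to 2657 to 6423 FPKM in neonatal and to 203.2 and 219.1 FPKM in adult libraries of batch 3, and to 2179 to 4790 in neonatal and 2260 to 4318 in adult libraries of batch 2. Acinar cell markers set 2 further libraries apart: the 9 in the table summed to 3421 FPKM in large replicate 14 of batch 3, against 17.8 to 796 in the other neonatal libraries, and to 3712 FPKM in adult replicate 1 of batch 2, against 10.1 to 238.5 in the other adult libraries. Large replicate 14 also had the highest summed duct (476.6 FPKM) and erythroid (882.7 FPKM) markers of all libraries. The main counts are also given without each of them. Because the batches differed, each age comparison below is given in batch 3 and in batch 2 separately as well as together.

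Zfp genes were expressed at low levels. The mean FPKM over all libraries was 4.35 at the median member (0.634 to 60.9), against 8.81 at the median of all genes in the table, and 146 members lay under 4 FPKM. KRAB members had a median of 3.05 FPKM and members without a KRAB box 7.66 FPKM, which corresponded to 228.5 and 690.5 fragments per library. In 6 or more libraries, 1 FPKM or more was reached by 302 members, 175 of them KRAB members and 125 without a KRAB box, and Zfp960, Zfp239 and Zfp934 fell short. In bulk islets, fewer cells of a type and less RNA per cell cannot be told apart.

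Of the 5 most abundant members, Zfp106 was lower in neonates and Zfp664 was 0.22 higher over all batches as deposited (0.017 after median-of-ratios rescaling, no longer called). Zfp516, a factor known from brown fat, averaged 60.9 FPKM over all libraries; it had 51.5, 71.1, 33.6, 61.2 and 57.8 FPKM in neonatal and 55.4 and 49.2 FPKM in adult libraries of batch 3, and 54.5 to 67.4 (median 57.3) in neonatal and 73.3, 72.1, 73.2 and 71.7 in adult libraries of batch 2. The ages overlapped in batch 3 and not in batch 2. Its age difference was called in batch 2, where it fell by 0.28 (log2 of FPKM + 1, adjusted p = 0.000656 by limma), and the difference between batches was not called (adjusted p = 0.219). Zfp664 averaged 38 FPKM, Zfp146 30.3 FPKM, Zfp207 25.2 FPKM and Zfp106 24.9 FPKM. Zfp207, which loads the checkpoint protein Bub3 onto kinetochores, differed by 0.058 over all batches with an adjusted p of 0.414. Zfp106, an RNA-binding protein needed by motor neurons, had 16.9, 20.6, 11.7, 20.5 and 21.6 FPKM in neonatal and 41.6 and 36.2 in adult libraries of batch 3, and 22.4 to 28.1 (median 25.7) in neonatal and 32.6, 31.3, 29.8 and 31.2 in adult libraries of batch 2. Its ages overlapped in neither batch, with a change of -0.56 ± 0.11 (SE) and an adjusted p of 8.97e-05.

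Considering all batches together, neonatal islets had 74 members higher and 73 lower than adult islets. This is 24.5% and 24.2% of the 302 members tested, at adjusted p under 0.05 in limma over all 13402 genes kept. Over all genes tested 67.9% were called, 46.8% higher and 21.1% lower. The median change of the members was 0.0090 and that of all genes 0.16, both on the log2(FPKM + 1) scale, which understates the change of low genes. The KRAB members had 23 higher and 51 lower, and the members without a KRAB box had 51 higher and 20 lower, a balance that turned to 34 higher and 49 lower after median-of-ratios rescaling and to 29 and 51 after quantile normalization. Without adult replicate 1, 68 members were higher and 75 lower, and without large replicate 14, 78 were higher and 73 lower. The counts over all members also depended on how libraries were scaled to each other: median-of-ratios rescaling gave 44 higher and 138 lower members, and quantile normalization 33 higher and 184 lower. The median of all genes moved by that rescaling to -0.019, and by quantile normalization to -0.061. Relative to the median of all genes, the KRAB members stood at -0.22 as deposited, -0.22 after median-of-ratios and -0.33 after quantile normalization, and the members without a KRAB box at -0.071, -0.076 and -0.028.

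The KRAB members differed between the 2 batches that held adult islets. In batch 3 neonatal islets had 7 KRAB members higher and 94 lower than adult islets, with a median change of -0.46. In batch 2 they had 85 higher and 33 lower as deposited, with a median of 0.17, a balance that turned to 50 higher and 57 lower after median-of-ratios rescaling and to 17 and 87 after quantile normalization. The members without a KRAB box had 40 higher and 21 lower in batch 3 (median 0.10) and 56 higher and 25 lower in batch 2 (median 0.11) as deposited, which rescaling turned to 37 and 49 (median-of-ratios) or 33 and 55 (quantile) in batch 2, and quantile normalization to 28 and 31 in batch 3. Over all genes, 51.4% were called in batch 3 (33.8% higher and 17.6% lower, median 0.15) and 75.3% in batch 2 (53.1% higher and 22.3% lower, median 0.19). Over all members 47 rose and 117 fell in batch 3, and 141 rose and 59 fell in batch 2 as deposited. Batch 3 held 2 adult libraries, and its counts depended on both: without adult replicate 5, 3 KRAB members rose and 62 fell, and without adult replicate 6, 3 rose and 43 fell. Without large replicate 14 of batch 3, 8 KRAB members rose and 104 fell there, and without adult replicate 1 of batch 2, 78 rose and 31 fell in batch 2 as deposited.

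In batch 3 the direction of the KRAB members held under both rescalings, with 5 higher and 124 lower after median-of-ratios and 4 higher and 142 lower after quantile normalization. Over all members the batch 2 counts became 87 higher and 108 lower after median-of-ratios and 50 higher and 144 lower after quantile normalization. Measured from the median of all genes, the KRAB members stood at -0.61 in batch 3 and -0.022 in batch 2 as deposited, at -0.60 and 0.0030 after median-of-ratios, and at -0.64 and -0.18 after quantile normalization. Under each of these 3 scalings the KRAB members thus stood lower, relative to the median of all genes, in batch 3 than in batch 2.

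**Figure D1:**
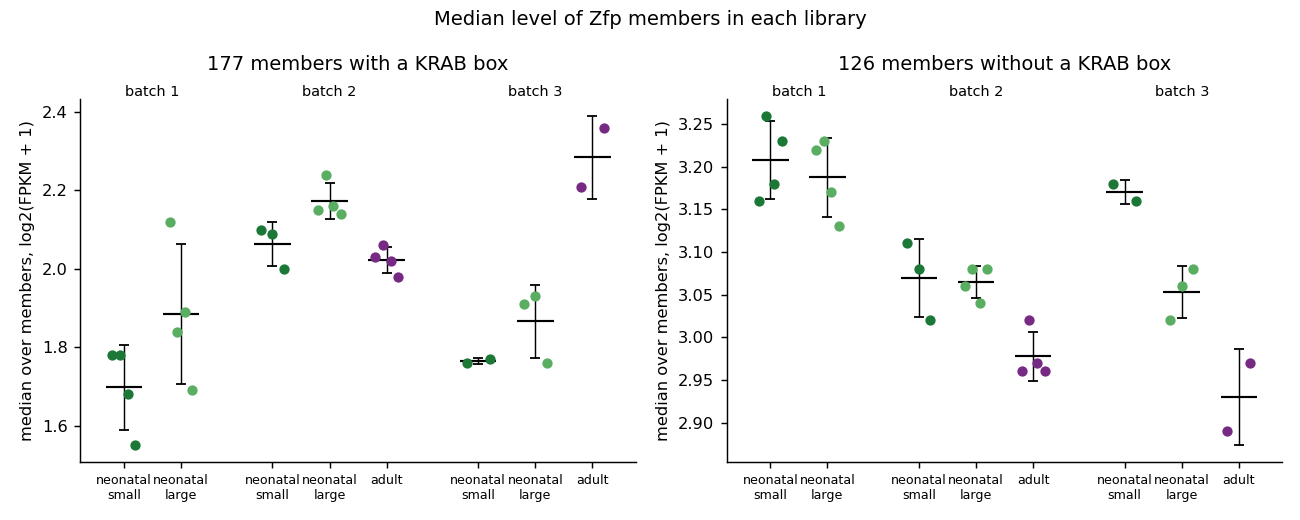
Median log2(FPKM + 1) over the 177 KRAB members (left) and the 126 members without a KRAB box (right) in each library, by group and batch; points are libraries, the long line is the mean and the bar the SD. In batch 3 the neonatal libraries lie at 1.76 to 1.93 and the adult ones at 2.21 and 2.36 for KRAB members, while in batch 2 the neonatal libraries lie at 2.00 to 2.24 and the adult ones at 1.98 to 2.06, on the scale as deposited.

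The level in each library showed which groups stood apart. For KRAB members the median log2(FPKM + 1) was 1.76 to 1.93 in the 5 neonatal libraries of batch 3 and 2.21 and 2.36 in its 2 adult libraries, so the groups did not overlap. In batch 2 it was 2.00 to 2.24 in the 7 neonatal libraries and 1.98 to 2.06 in the 4 adult ones, which overlapped. The 8 neonatal libraries of batch 1 lay at 1.55 to 2.12. For members without a KRAB box it was 3.02 to 3.18 in neonatal and 2.89 and 2.97 in adult libraries of batch 3, and 3.02 to 3.11 in neonatal and 2.96 to 3.02 in adult libraries of batch 2. The summed FPKM of the KRAB members was 657.5 to 743.9 in neonatal and 921.2 and 1010 in adult libraries of batch 3, and 786.8 to 889 in neonatal and 869.5 to 894.2 in adult libraries of batch 2.

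The neonatal minus adult difference was then tested for a difference between batches, as batch 3 minus batch 2. Of the 302 members 37 were called positive and 151 negative, where 43.2% of all genes were called (18.3% positive and 24.9% negative). Of the 175 KRAB members 11 were positive and 120 negative, with a median of -0.60, and of the 125 members without a KRAB box 26 were positive and 30 negative, with a median of -0.022. The median of all genes was -0.055. With the other scalings the KRAB members had 12 positive and 114 negative (median-of-ratios) and 10 positive and 115 negative (quantile normalization). Without adult replicate 5 the positive KRAB members numbered 7, against 11 with it. Without adult replicate 1 the KRAB members had 11 positive and 115 negative, and without large replicate 14 they had 13 positive and 126 negative. With another library left out instead, the negative KRAB count also fell below 115. A rise called in batch 2 together with a fall called in batch 3 was found for 36 KRAB members (20.6%), 4 members without a KRAB box (3.2%) and 411 of all genes tested (3.07%), on the scale as deposited.

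Libraries of the same age also differed between batches. Adult libraries of batch 3 had 91 KRAB members higher and 14 lower than adult libraries of batch 2 (median 0.33), where 43.1% of all genes were called, 26.8% higher and 16.3% lower (median 0.11). Neonatal libraries of batch 3 had 4 KRAB members higher and 103 lower than neonatal libraries of batch 2 (median -0.29), where 35.7% of all genes were called, 19.6% higher and 16.1% lower (median 0.037). The members without a KRAB box had 31 higher and 23 lower between adult batches and 32 higher and 25 lower between neonatal batches, which quantile normalization turned to 22 and 25, and 28 and 34. Without adult replicate 6, 80 of all members were higher between adult batches, against 123 with it. Batch, animals and islet preparation cannot be told apart in these comparisons.

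The batch difference was then set beside expression level and finger number. In that difference 18.3% of all genes were positive and 24.9% negative. Among the 3427 genes other than members with a mean under 4 FPKM, 402 were positive and 719 negative in the batch difference (median -0.058), whereas of 117 KRAB members under 4 FPKM 3 were positive and 91 negative (median -0.71). KRAB members of 4 FPKM or more had 8 positive and 29 negative of 58 (median -0.33), and members without a KRAB box under 4 FPKM had 6 positive and 8 negative of 24 (median -0.084). By finger number, the KRAB members with 11 or more fingers had 4 positive and 90 negative of 114 (median -0.68), those with 6 to 10 fingers 6 positive and 26 negative of 50 (median -0.40), and those with 0 to 5 fingers 1 positive and 4 negative of 11 (median -0.10). These are descriptions of overlapping subsets, and their difference from each other was not tested.

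**Figure D2:**
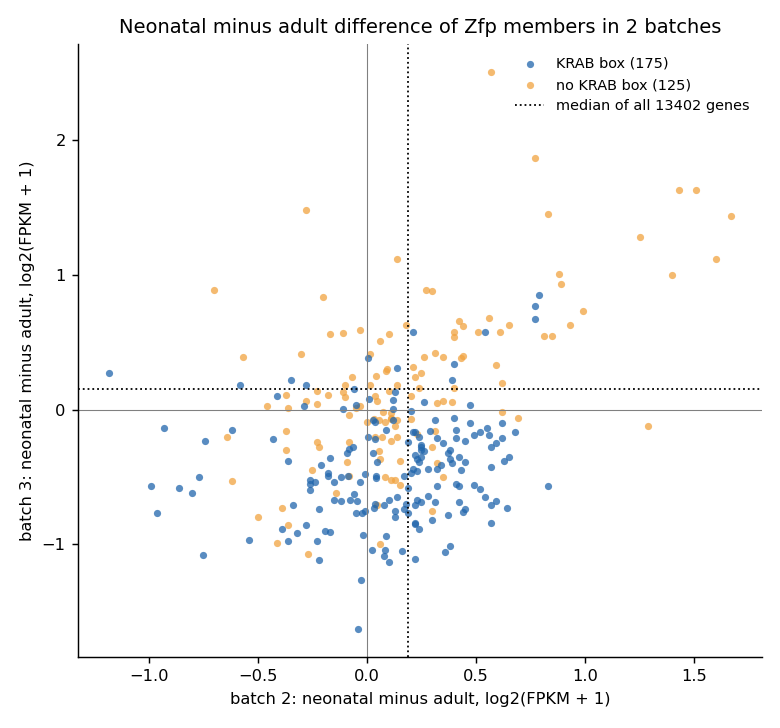
Neonatal minus adult difference of each member in log2(FPKM + 1), in batch 2 (horizontal axis) and batch 3 (vertical axis); blue points are 175 KRAB members, orange points 125 members without a KRAB box, and dotted lines mark the medians of all 13402 genes at 0.19 and 0.15. Of the KRAB members 151 lie below 0 on the vertical axis and 117 above 0 on the horizontal one as deposited; in batch 2 rescaling turned the balance of the KRAB calls.

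The 15 immediate early genes also differed between the batches, with the opposite sign to most KRAB members. All 15 were higher in neonates in batch 3 (median 4.25) and positive in the batch difference. In batch 2, 4 were higher and 5 lower (median -0.27). Of all genes, 33.8% were higher and 17.6% lower in batch 3, 53.1% and 22.3% in batch 2, and 18.3% positive in the batch difference. The part of the immediate early genes in the KRAB result was not tested, and neither was that of the lower fragment totals of the adult libraries of batch 3. The 8 nuclear noncoding RNAs measured, among them Malat1 and Neat1, had 8 called lower in neonates in batch 3 and 7 in batch 2, with a median batch difference of -0.35.

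Zfp950 had the most negative batch difference of the members. It had 1.53, 1.57, 1.95, 2.02 and 1.54 FPKM in neonatal and 6.84 and 7.8 FPKM in adult libraries of batch 3. In batch 2 it had 2.01 to 2.97 FPKM (median 2.49) in neonatal and 2.42, 2.38, 2.81 and 2.7 FPKM in adult libraries. The adult libraries of batch 3 lay above all others of these batches, with a neonatal minus adult change of -1.63 ± 0.12 in batch 3 and -0.043 ± 0.077 in batch 2 (SE), and a batch difference of -1.59 ± 0.13 (adjusted p = 2.15e-07, limma).

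Zfp882 and Zfp799, KRAB members of runs on chromosomes 8 and 17, turned their direction between batches. Zfp882 had 1.64, 1.88, 1.49, 2.52 and 2.01 FPKM in neonatal and 4.7 and 5.25 in adult libraries of batch 3, and 2.49 to 2.9 (median 2.62) in neonatal and 1.73, 1.91, 1.81 and 1.9 in adult libraries of batch 2. Its change was -1.06 in batch 3 and 0.36 in batch 2, with no overlap of the ages in either batch, although quantile normalization moved the batch 2 change to -0.044. Zfp799 had 3.56, 3.57, 3.54, 5.73 and 4.11 FPKM in neonatal and 7.98 and 7.75 in adult libraries of batch 3, and 4.64 to 6.72 (median 6.05) in neonatal and 3.57, 3.54, 3.28 and 3.47 in adult libraries of batch 2. Its batch difference was -1.41 ± 0.15 and that of Zfp882 -1.42 ± 0.13. Zfp174, a SCAN domain member without a KRAB box, had a batch difference of -1.40 ± 0.13. It had 5.16, 6.28, 4.25, 6.08 and 5.65 FPKM in neonatal and 5.57 and 6.51 in adult libraries of batch 3, which overlapped, and 6.37 to 7.45 (median 6.85) in neonatal and 2.03, 2.16, 2.31 and 2.31 in adult libraries of batch 2.

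Of the 7 KRAB members with the Zfp143 and Thap11 core in the promoter window printed above, 6 had a negative batch difference that was called and 1, Zfp1, a positive one of 0.50, where 68.6% of the tested KRAB members and 24.9% of all genes were called negative. They included -0.99 for Zfp93 and -0.53 for Zfp454. Zfp143, which reads that element, differed by 0.010 over all batches (adjusted p = 0.868), with 5.78, 5.17, 6.56, 6.13 and 5.71 FPKM in neonatal and 5.87 and 6.48 FPKM in adult libraries of batch 3.

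The 4 largest positive batch differences included 3 members without a KRAB box. Zfp703, a corepressor of the NET family that acts in epithelial growth, had 26.2, 16.8, 22.6, 14.3 and 16 FPKM in neonatal and 2.67 and 2.38 FPKM in adult libraries of batch 3, and 9.25 to 14.8 (median 11.2) in neonatal and 6.69, 6.72, 8.79 and 7.89 in adult libraries of batch 2. The ages did not overlap in either batch, and the change was 2.51 ± 0.22 in batch 3 and 0.57 ± 0.11 in batch 2. Zfp622 and Zfp593 are counterparts of yeast factors that act on the large ribosomal subunit as it leaves the nucleus. Zfp622 had 24.8, 18.7, 22.2, 13.1 and 13.4 FPKM in neonatal and 5.16 and 6.82 in adult libraries of batch 3, and 9.38 to 21.6 in neonatal and 14.7, 16.5, 15.9 and 16.4 in adult libraries of batch 2, where the ages overlapped. Zfp593 was 0.89 higher in neonates in batch 3 and 0.70 lower in batch 2 (change of -0.70), both called. Zfp184, the KRAB member of the 4, had a change of 0.27 in batch 3 with an adjusted p of 0.359 and of -1.18 in batch 2 with an adjusted p of 1.29e-07.

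**Figure D3:**
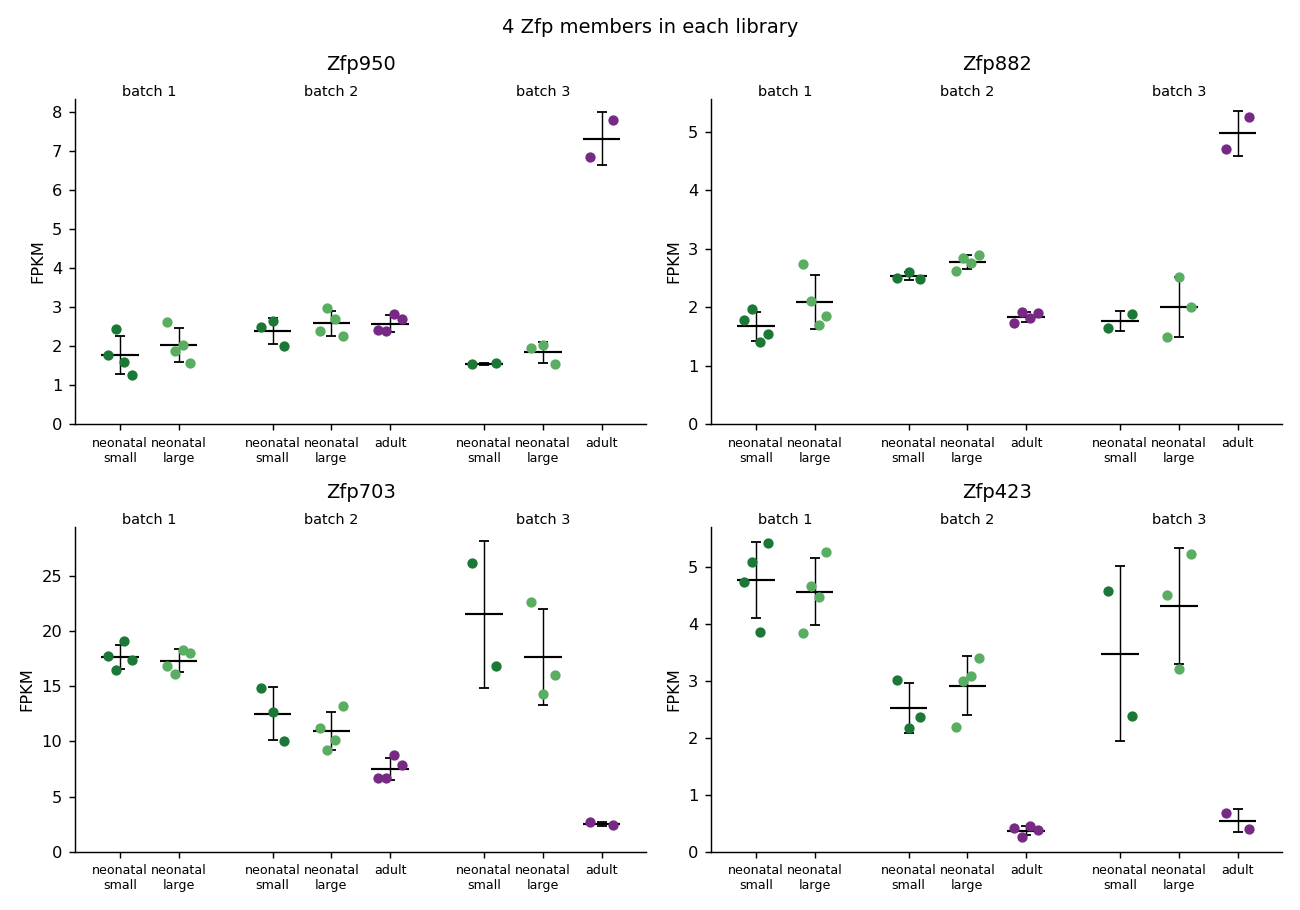
FPKM of Zfp950, Zfp882, Zfp703 and Zfp423 in each library, by group and batch; points are libraries, the long line is the mean and the bar the SD. Zfp950 and Zfp882 are high in the 2 adult libraries of batch 3 alone, Zfp703 is lowest there, and Zfp423 is low in all 6 adult libraries.

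A smaller set of members kept its direction in both batches. Calls were the same way in batch 3 and batch 2 for 35 higher members (11.6%) and 32 lower members (10.6%), against 26.6% and 8.94% of all genes. The higher set held 29 members without a KRAB box (23.2% of that class) and 6 KRAB members (3.43%). The lower set held 8 (6.4%) and 23 (13.1%). These counts are as deposited, and rescaling turned the balance of the batch 2 calls in both classes.

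The 6 largest rises in neonates that held in both batches were in members without a KRAB box. Zfp366, a corepressor known from dendritic cells, had 7.49, 6.15, 5.22, 7.35 and 7.51 FPKM in neonatal and 1.81 and 1.89 in adult libraries of batch 3, and 5.62 to 6.79 (median 6.13) in neonatal and 0.835, 1.4, 1.38 and 1.38 in adult libraries of batch 2, a change of 1.59 ± 0.074 over all batches (adjusted p = 4.29e-16). Zfp521 and Zfp423 are related proteins of 27 fingers each by the pattern used here, and both are known from progenitors of bone and fat. Zfp521 had 5.43, 2.89, 5.56, 4.34 and 6.11 FPKM in neonatal and 0.746 and 0.884 in adult libraries of batch 3, and 2.68 to 4.94 in neonatal and 0.486, 0.591, 0.728 and 0.787 in adult libraries of batch 2. Zfp423 had 4.57, 2.39, 4.51, 3.21 and 5.22 FPKM in neonatal and 0.685 and 0.405 in adult libraries of batch 3, and 2.18 to 3.4 in neonatal and 0.41, 0.253, 0.445 and 0.374 in adult libraries of batch 2. Both were under 1 FPKM in every adult library and passed the filter through neonatal libraries alone. Zfp366, Zfp41 and Zfp503 also reached 1 FPKM in fewer than 6 adult libraries and needed neonatal ones to pass. Neither Zfp521 nor Zfp423 overlapped between ages, and their changes were 1.55 ± 0.10 and 1.51 ± 0.10 (SE). Zfp41 rose by 1.43, Zfp703 by 1.26 and Zfp580 by 1.25. The mesenchymal and endothelial markers given above were also higher in every neonatal library than in every adult one, and their part in these rises was not tested.

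Other members with known roles were higher in neonates too. Zfp503, the NET family partner of Zfp703, rose by 1.16 ± 0.16, with 5.99, 3.48, 7.06, 3.5 and 6.89 FPKM in neonatal and 0.824 and 0.521 in adult libraries of batch 3. Zfp367 rose by 0.93 ± 0.073 and Zfp217, a cofactor of corepressor complexes amplified in tumours, by 0.71 ± 0.078, and neither had a called batch difference. Zfp91, a ubiquitin ligase, rose by 0.45 ± 0.092 over all batches, with 0.62 in batch 2 and 0.20 in batch 3, where the adjusted p was 0.132.

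The largest falls in neonates that held in both batches were all KRAB members. Zfp667 had 9.11, 10.4, 8.66, 9.89 and 8.75 FPKM in neonatal and 16.6 and 16.9 in adult libraries of batch 3, and 9.86 to 12.4 (median 11.1) in neonatal and 21.2, 23.4, 24.1 and 20.6 in adult libraries of batch 2, a change of -0.89 ± 0.070. Zfp869 had 17.6, 17, 16.5, 17.1 and 17 FPKM in neonatal and 25.1 and 26.5 in adult libraries of batch 3, and 17.3 to 22.1 in neonatal and 38.5, 39.5, 44 and 41.2 in adult libraries of batch 2, a change of -0.84 ± 0.067. Its adult libraries were all lower in batch 3 than in batch 2, and it had a batch difference of 0.42 (adjusted p = 0.00365). Zfp941 fell by 0.88, Zfp612 by 0.76, Zfp429 by 0.74 and Zfp719 by 0.70. None of the 6 overlapped between ages within batch 3 or within batch 2. Of these, Zfp719 had a negative batch difference of -0.43, and for the other 4 no batch difference was called.

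**Figure D4:**
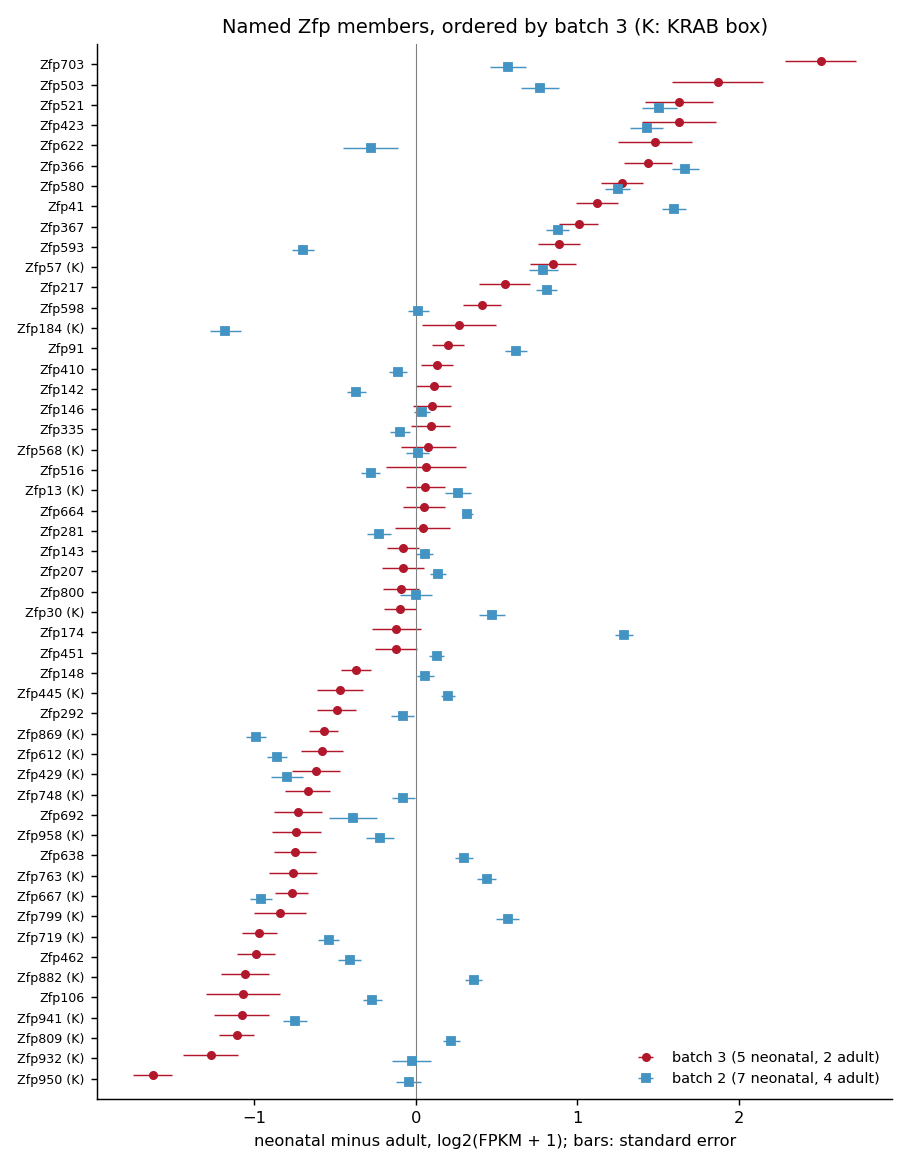
Neonatal minus adult change in log2(FPKM + 1) of the 51 named members in batch 3 (red circles) and batch 2 (blue squares), ordered by batch 3, with bars for the standard error and K for a KRAB box. The members at the top (Zfp703, Zfp503, Zfp521, Zfp423) carry no KRAB box and lie above 0 in both batches, and the lowest 3 (Zfp950, Zfp932, Zfp809) are KRAB members with batch 2 values of -0.043, -0.026 and 0.22.

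KRAB members with described targets did not share one pattern. Zfp57 and Zfp445 bind methylated imprinting control regions and keep their imprints. Zfp57 had 1.17, 0.728, 1.19, 1.04 and 1.42 FPKM in neonatal and 0.151 and 0.143 in adult libraries of batch 3, and 0.592 to 1.48 in neonatal and 0.125, 0.149, 0.175 and 0.222 in adult libraries of batch 2. It rose by 0.82 ± 0.079, and it passed the filter through its neonatal libraries. Zfp445 had 20.4, 18.9, 16.6, 21.8 and 21 FPKM in neonatal and 25.5 and 30 in adult libraries of batch 3, and 24.6 to 27.6 in neonatal and 22.1, 22.3, 23.6 and 24.7 in adult libraries of batch 2; its change was -0.47 in batch 3 and 0.20 in batch 2, and median-of-ratios rescaling turned the batch 2 value to -0.022.

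Zfp809, which recognizes the primer binding site of murine leukaemia virus, had 7.82, 6.91, 8.34, 9.42 and 7.5 FPKM in neonatal and 17.6 and 18.6 in adult libraries of batch 3, and 9.2 to 11 in neonatal and 8.01, 8.51, 8.83 and 9.33 in adult libraries of batch 2. Its batch difference was -1.34 ± 0.11 (adjusted p = 1.39e-07). Zfp932, a repressor of endogenous retroviruses, had 1.82, 1.9, 2.96, 2.02 and 1.83 FPKM in neonatal and 5.34 and 7.44 in adult libraries of batch 3, and overlapping values in batch 2 (2.23 to 4.75 in neonatal and 3.56 to 4.14 in adult libraries). Zfp568, which represses a placental transcript of Igf2, differed by 0.035 over all batches with an adjusted p of 0.672 and had no called batch difference. Zfp30 and Zfp13, further KRAB members, had changes of 0.26 and 0.19 over all batches, which quantile normalization turned to -0.14 and -0.091.

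Some members without a KRAB box also had negative batch differences. Zfp638, a nuclear RNA- and DNA-binding protein that silences unintegrated retroviral DNA, had 15.6, 14.1, 14.4, 19.1 and 16.5 FPKM in neonatal and 25.2 and 29.2 in adult libraries of batch 3, and 19.6 to 23.2 in neonatal and 16.6, 16.6, 19.6 and 18.5 in adult libraries of batch 2, with a batch difference of -1.06 ± 0.12. Zfp462, a heterochromatin-associated factor, was lower in neonates in both batches (-0.99 in batch 3 and -0.41 in batch 2). Zfp292 and Zfp148 had negative batch differences of -0.41 and -0.43. Zfp281, Zfp410, Zfp451 and Zfp800 had no called batch difference and lay between -0.14 and 0.037 over all batches, none called.

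By chromosomal position, the runs of KRAB genes differed among themselves. Counts are as deposited, where all genes had 33.8% higher and 17.6% lower in batch 3 and 53.1% higher and 22.3% lower in batch 2, and rescaling turned the balance of the KRAB calls in batch 2. The run of 13 KRAB members on chromosome 13 (67038596 to 67827002, mm10) had 0 higher and 11 lower in batch 3 and 6 higher and 2 lower in batch 2, with a median batch difference of -0.84. The run of 21 members on chromosome 17 (21008903 to 23599487, 20 with a KRAB box) had 1 higher and 14 lower in batch 3 and 11 higher and 1 lower in batch 2 (median batch difference -0.75). The run of 14 members on chromosome 7 (29768552 to 30169750, 10 with a KRAB box) had 0 higher and 4 lower in batch 3 and 9 higher and 0 lower in batch 2. Not every run had more members higher than lower in batch 2. The run of 4 KRAB members on chromosome 2 (177464733 to 178078476) had 0 higher and 3 lower in batch 3 and 0 higher and 1 lower in batch 2, and the run of 6 KRAB members on chromosome 8 (69209038 to 69791178) had 0 higher and 4 lower in batch 3 and 2 higher and 2 lower in batch 2. The run of 6 members on chromosome 7 (6131491 to 6396915, 4 with a KRAB box) had a median batch difference of 0.11. In 3 runs the batch 3 median was above 0: chromosome 7, 4915217 to 5053723, with no KRAB member among 6 (0.31), chromosome 6, 47819266 to 48623227, with 6 of 10 (0.28), and chromosome 7, 127233061 to 127885996, with 4 of 10 (0.16). KRAB members inside runs had 5 positive and 76 negative batch differences of 110 (median -0.63), and those outside runs 6 positive and 44 negative of 65 (median -0.53). The shares over all genes were 18.3% positive and 24.9% negative.

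**Figure D5:**
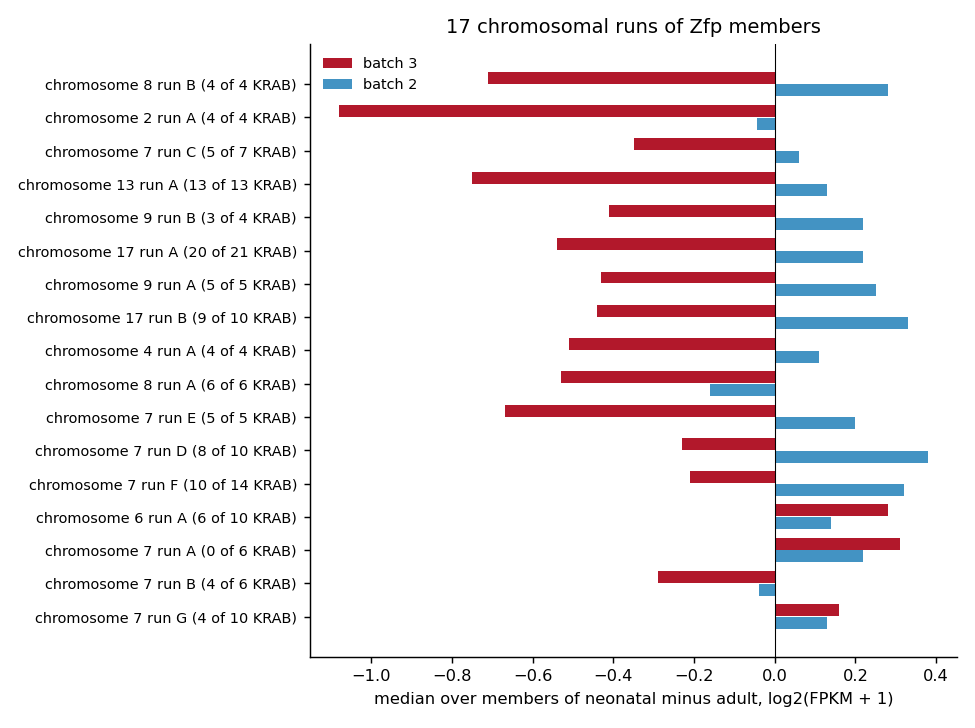
Median neonatal minus adult change in log2(FPKM + 1) over the members of each of 17 chromosomal runs, in batch 3 (red) and batch 2 (blue), ordered by the median batch difference, with the number of KRAB members in brackets. In 14 runs the batch 3 bar lies below 0, and the run without any KRAB member lies above 0 in both batches.

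Small and large neonatal islets were then compared. Small islets had 13 members higher and 18 lower than large islets (10.3% of 302), where 17.6% of all genes were called, 4.96% higher and 12.7% lower. The median was -0.13 for KRAB members, with 4 higher and 12 lower, -0.0030 for members without a KRAB box, with 9 higher and 6 lower, and -0.039 for all genes. Rescaling turned the balance of the calls, to 21 higher and 13 lower after median-of-ratios and 33 higher and 7 lower after quantile normalization. As deposited, 149 of the 175 KRAB members had a value below 0. In each of the 3 batches taken alone 109 lay below 0, against 4756 of all 13402 genes. The KRAB median became -0.10 after median-of-ratios, with 4 KRAB members higher and 9 lower. After quantile normalization it was -0.038, with 7 higher and 2 lower.

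Fitted within each batch, batch 1 alone gave adjusted calls, with 27 members higher and 40 lower in small islets (37% of all genes called, 14.5% higher and 22.5% lower). Within batch 2 and within batch 3 limma called 0 of all 13402 genes either way, and so 0 members. At an unadjusted p under 0.05, 4 members were higher and 42 lower in batch 2, and 3 higher and 3 lower in batch 3. Over all genes these unadjusted counts were 310 higher and 1186 lower in batch 2 and 152 higher and 404 lower in batch 3. Of the 31 members called over all batches, 13 were above 0 and 17 below 0 in each of the 3 batches taken alone. Of all 2363 genes called over all batches, 622 were above 0 and 1678 below 0 in each. The calls came from these same libraries, so such agreement of sign is largely fixed by the selection. In batch 1 the small libraries also had fewer fragments, as given above, and more nuclear noncoding RNA (3196 to 3994 summed FPKM in small and 2005 to 2886 in large libraries). The mesenchymal and pericyte markers summed to 200.1 to 635 FPKM in small and 304.1 to 1282 in large libraries over all batches, with 6 of 10 called lower in small islets. The part of any of these in the calls was not tested. The number of members higher fell to 8, against 13 with all libraries, without small replicate 2, 3 or 4 or without large replicate 10, 11 or 13. The number lower was 10 without small replicate 4, 27 without large replicate 14 and 28 without large replicate 16, against 18 with all libraries.

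Among the members called between sizes, Zfp335, a factor needed by neural progenitors, had the largest positive change, 0.36 ± 0.077 (adjusted p = 0.00396). It had 23.3, 25.8, 29.5 and 32.6 FPKM in small and 14.6, 18.1, 19.5 and 18.3 in large libraries of batch 1, which did not overlap, 14.5, 14.7 and 14.2 in small and 12.4, 13.2, 14.3 and 13.1 in large libraries of batch 2, and 14.1 and 16.5 in small and 11.2, 13.7 and 13.5 in large libraries of batch 3. The sizes overlapped in batch 2 and not in batch 3. Zfp142 was 0.34 ± 0.072 higher in small islets, and its small libraries lay above its large ones in every batch. Zfp692 was 0.34 higher, with 6.85 to 9.48 FPKM in small and 4.29 to 5.23 in large libraries of batch 1 and overlapping values in batches 2 and 3. Zfp598, the ubiquitin ligase that marks collided ribosomes, was 0.31 ± 0.064 higher (adjusted p = 0.00293), with 25, 27.4, 26.5 and 28.2 FPKM in small and 18.2, 20.5, 19.1 and 21.9 in large libraries of batch 1.

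The members with the largest falls in small islets were the KRAB members Zfp763, Zfp958 and Zfp748. Zfp763 had 2.5, 2.47, 2.21 and 1.56 FPKM in small and 3.7, 2.95, 3.26 and 2.5 in large libraries of batch 1, 3.97, 4.2 and 3.55 in small and 4.88, 4.87, 4.92 and 4.97 in large libraries of batch 2, and 2.39 and 1.72 in small and 2.57, 3.78 and 3.6 in large libraries of batch 3. The sizes overlapped in batch 1 and not in batches 2 and 3. It fell by 0.36 in small islets (adjusted p = 0.0425) with the same sign in each batch. Zfp958 fell by 0.34 and Zfp748 by 0.32. Set against adult islets, small islets had 65 members higher and 77 lower (all genes 63% called, 43.1% higher and 19.9% lower), and large islets had 73 higher and 56 lower (all genes 67.2% called, 46.9% higher and 20.2% lower), and both turned to mostly lower after rescaling, to 43 and 141 in small and 40 and 124 in large islets after median-of-ratios. Both contrasts share the adult libraries. Within batch 3 against adult islets, 44 members were higher and 109 lower in small islets (all genes 41% called, 27.1% higher and 13.9% lower) and 41 higher and 103 lower in large islets (all genes 48.4%, 32.5% and 15.9%). Within batch 2 against adult islets, 114 were higher and 60 lower in small islets (all genes 68.2%, 47.8% and 20.5%) and 149 higher and 53 lower in large islets (all genes 73.3%, 52.4% and 20.9%).

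Related zinc finger families were set beside the members. In the batch difference, 12 Zbtb genes, whose proteins pair zinc fingers with a BTB domain, were positive and 8 negative of 38 (median 0.031), where 18.3% of all genes were positive and 24.9% negative. The Zscan and Zkscan genes had 4 positive and 9 negative of 20 (median -0.19). The Klf genes, some of which are themselves induced by stimuli, had 10 positive and 1 negative of 15 (median 1.23).

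The KRAB corepressors and related heterochromatin genes were mostly higher in neonates over all batches and in batch 2, as deposited. Of 33 genes of the Trim28 pathway and of heterochromatin, 23 were higher and 2 lower over all batches, 14 higher and 4 lower in batch 3, and 26 higher and 2 lower in batch 2. Of all genes, 46.8% were higher and 21.1% lower over all batches, 33.8% and 17.6% in batch 3, and 53.1% and 22.3% in batch 2. The median of the 33 over all batches was 0.38, against 0.16 for all genes, as deposited, and this list was not rescaled. Trim28 itself, the protein bound by the KRAB box, rose by 0.94 in batch 3 and by 0.79 in batch 2, with no called batch difference (adjusted p = 0.281). Setdb1, the histone methyltransferase it recruits, had a change of 0.10 in batch 3 (adjusted p = 0.523) and rose by 0.72 in batch 2. The largest changes over all batches were those of Uhrf1 (3.06), Dnmt3a (1.35), Dnmt1 (1.34) and Suv39h1 (0.98), which write or maintain DNA and histone methylation. The 8 markers of cycling cells summed to 104.5 to 181.7 FPKM in neonatal and 4.28 to 9.77 FPKM in adult libraries, and their part in these changes was not tested. In the batch difference 2 of the 33 were positive and 16 negative, where 18.3% of all genes were positive and 24.9% negative. Fam208a, a HUSH complex subunit, was at -1.44.

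The authors' deposited table, which compares neonatal with adult libraries, marks 12 members UP and 9 DOWN. Marks were not counted over all genes here, so it is not known whether these counts are many or few. Every gene marked either way there had an absolute log2 fold change of at least 1.00. By the authors' deposited values in that table, 183 members had an FDR under 0.05, 38 with a positive and 145 with a negative log2 fold change. Of all 13641 genes, 4192 had an FDR under 0.05 with a positive and 5015 with a negative log2 fold change. The median log2 fold change was -0.23 over members and -0.058 over all genes. The table gives no value by batch.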

How the data were processed

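Islet RNA was sequenced in 26 libraries (9 neonatal small, 11 neonatal large, 6 adult). Per the submitters' processing notes edgeR, HTSeq 0.11.1 and STAR 2.6a were used with mm10, and what each did is not stated. FPKM were deposited by the authors. The same deposited table gives a log2 fold change, a mean log2 CPM, an F score, a p-value and an FDR of the authors' own comparison. FPKM steps gave whole fragments for 100% of values within 0.03 fragments (13640 of 13641 genes), which were used for depth and for limma-voom as an alternative.

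Genes with at least 1 FPKM in at least 6 libraries (13402) were tested on log2(FPKM + 1) with limma 3.58.1 (R 4.3.3, statmod 1.5.0), group plus batch, trended robust variance, Benjamini-Hochberg adjusted over all of them, called at adjusted p under 0.05. Batches were also fitted alone, and the batch difference in a cell-means fit of batches 2 and 3. The scripts were tested on simulated data. KRAB boxes were found with a profile of 38 positions (score threshold 20). Nothing says that libraries came from separate animals, so p-values measure the spread between these libraries, which may be technical.

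The named members and the lists were chosen with earlier results of these data known. Named were members with textbook roles, the 6 largest rises and falls with age of the same sign in both batches, the 4 largest batch differences each way, the 3 largest size differences each way, and the 5 most abundant. Zfp42, Zfp473, Zfp469 and Zfp819 were not analysed here. Replicate numbers were not taken to pair the samples, since not every pair correlated. Alternatives were another pseudocount (0.1), no filter, 2 rescalings, no batch term, plain variance, voom, a replicate block and each library left out. The block used title numbers for age contrasts and library-name numbers for small against large. KRAB counts under the alternatives, batches 2 and 3 alone, and the immediate early list were chosen after seeing the data.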

Additional observations from a re-analysis of the deposited data

Results flagged for a closer look

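The neonatal minus adult difference in log2(FPKM + 1) differed between batch 3 and batch 2, by the limma test of that difference, for 28 of the 51 named members, where 43.2% of all genes were called. Of the 51, 8 were named for the largest batch differences, so the count is a description. It was negative for 20 of them: Zfp950 (-1.59), Zfp882 (-1.42), Zfp799 (-1.41), Zfp174 (-1.40), Zfp809 (-1.34), Zfp932 (-1.24), Zfp763 (-1.20), Zfp638 (-1.06), Zfp106 (-0.80), Zfp445 (-0.67), Zfp748 (-0.59), Zfp462 (-0.58), Zfp30 (-0.57), Zfp958 (-0.52), Zfp41 (-0.48), Zfp148 (-0.43), Zfp719 (-0.43), Zfp91 (-0.42), Zfp292 (-0.41) and Zfp664 (-0.27). It was positive for 8: Zfp703 (1.94), Zfp622 (1.76), Zfp593 (1.58), Zfp184 (1.45), Zfp503 (1.09), Zfp142 (0.48), Zfp869 (0.42) and Zfp598 (0.40). Each value is batch 3 minus batch 2.

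A library stood far from the others of its group, by Dixon's test, in 6 of 136 sets of values of the small or the adult libraries: none of the named members or member medians, and 6 of the summed marker lists. If each group were 1 normal population, chance alone would flag about 1 in 20 such sets. These groups mix batches and all the flags fell on marker lists, so that rate is only a rough guide. Among adult libraries, replicate 1 of batch 2 had 3712 FPKM of acinar markers, against 238.5 in the next. Among small libraries, replicate 8 of batch 2 had 599 FPKM of acinar markers, replicate 5 of batch 3 had 635 FPKM of mesenchymal and pericyte, 522 FPKM of endothelial and 248 FPKM of duct markers, and replicate 6 of batch 3 had 484 FPKM of erythroid markers. The 11 large libraries were not tested in this way. Among them, replicate 14 had 3421 FPKM of acinar markers.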

How the results depend on the processing

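Median-of-ratios rescaling gave 44 higher and 138 lower members in neonatal against adult islets, 43 and 141 in small against adult, 40 and 124 in large against adult, 21 higher in small against large, 87 and 108 in batch 2, and 50 and 57 KRAB members in batch 2. Quantile normalization gave 33 and 184, 37 and 169, 33 and 178, 33 and 7, 50 and 144, and 17 and 87 in the same order, and 4 and 142 KRAB members in batch 3. Small against large had 3 higher and 1 lower with no batch term, 27 and 40 in batch 1 alone, and 0 either way in limma in batch 2, batch 3 or both together. In batch 2 alone and in batch 3 alone, 0 of all genes were called either. Batch 2 alone gave 114 members higher in small and 149 in large against adult islets, and batch 3 alone 41 higher and 103 lower in large. Leaving out each library in turn gave 8 to 17 higher and 10 to 28 lower in small against large, 29 to 54 higher and 51 to 131 lower in batch 3 (KRAB members 3 to 8 and 43 to 104), 7 to 13 positive KRAB members in the batch difference, and 80 to 133 higher between adult batches. Where 1 adult library of batch 3 remained, it was assumed to vary like the other groups.

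The sign reversed with median-of-ratios for Zfp598 over all batches (-0.031) and for Zfp445 (-0.022), Zfp451 (-0.082) and Zfp207 (-0.075) in batch 2. It reversed with quantile normalization for Zfp30 (-0.14) and Zfp13 (-0.091) over all batches and for Zfp451 (-0.0091), Zfp882 (-0.044) and Zfp13 (-0.052) in batch 2. Zfp142 over all batches became 0.03 with no batch term and 0.028 with a replicate block on title numbers. That block joins small and adult libraries of the same title number, some of them across batches. The cause was not tested. The title-number block gave 53 higher and 66 lower members in neonatal against adult and 63 and 98 in small against adult. A different block, on library-name numbers within batch, joins small and large libraries and gave 17 and 22 in small against large. All of these were within 1.5 times of the counts without a block. Libraries sharing a library-name number correlated at -0.16 to 0.63 over 7 small and large pairs. Small and adult libraries sharing a title number correlated at -0.10 to 0.14. Neither pairing was applied, although 13 of 14 libraries of the small and large pairs correlated best with their own number. The age contrasts thus treated these small and large libraries as separate, and were not refitted with the library-name block. Depth limits the KRAB members most, at a median of 228.5 fragments per library.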
